A study of Mus musculus with 16 samples.

Results

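Vomeronasal type 1 receptor (Vmn1r) genes encode the V1R family of G protein-coupled receptors, and 208 of them were examined for accessible chromatin in mouse ES cells, where the family is taken to be silent. The members were all autosomal genes annotated as protein-coding in GENCODE M21 whose names start with Vmn1r, out of 20807 autosomal protein-coding genes. They lay on chromosome 7 (103 genes), chromosome 6 (51), chromosome 13 (36), chromosome 17 (14), chromosome 4 (2), chromosome 1 (1) and chromosome 18 (1). In all, 327 annotated genes carry a Vmn1r name. Of these, 118 are autosomal pseudogenes and 1 is not autosomal. Among the members, Vmn1r216 is counted under each of its overlapping gene identifiers. Vmn1r207-ps is included because it is annotated as protein-coding, despite its pseudogene name.

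ATAC-seq marks open chromatin by the insertion of sequencing adapters with the Tn5 transposase, and a region is an interval where the resulting fragments accumulated. The 12 libraries came from SBROS cells, a CGR8-background ES cell line derived as a clone of the SBR reporter line, in which both SOX2 alleles carry a SNAP-tag and 1 OCT4 allele carries a HALO-tag. Cells grown with serum, LIF, CHIR99021 and PD184352 were stained for both tags and for DNA with Hoechst, and were sorted in G1 phase into 4 populations with high or low signal for each tag. These were SHOH (SOX2 high, OCT4 high), SHOL (SOX2 high, OCT4 low), SLOH (SOX2 low, OCT4 high) and SLOL (SOX2 low, OCT4 low), with 3 replicates each. The deposited list merges the peaks of all 12 libraries into regions, 79278 of them autosomal, without a level, score or library. The list therefore gives no depth for a library or a region, a region may come from a single library, and neither replicates nor populations could be compared. Of 8 ES cell marker genes, 7 had a region centred within 1 kb of a transcription start site (TSS), Pou5f1, Sox2, Klf4, Zfp42, Esrrb, Tfcp2l1 and Dppa5a (87.5%, 95% Wilson interval 52.9 to 97.8%). The interval includes the 69.5% of all autosomal protein-coding genes, so the markers do not tell the cell type apart in this list. At Nanog, the remaining marker, the closest region was 4329 bp away.

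In the adult mouse, V1R receptors are displayed by the apical sensory neurons of the vomeronasal organ, where they detect pheromones and other chemical signals and act through the G protein subunit encoded by Gnai2 and the channel encoded by Trpc2. Each neuron mainly expresses a single receptor gene. The genes form clusters in AT-rich sequence full of repeats, and the coding sequence of each receptor is usually contained in a single exon, preceded by non-coding exons several kb upstream.

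The regions closest to a Vmn1r TSS are given as examples of accessible sequence near these genes. They were chosen by distance alone and need not be typical of the other regions. The 7 sequences given here are on the plus strand of mm10, with bases that the reference genome leaves outside repeats in capitals, repeat bases in lower case, and annotated exons left out. For regions wider than 300 bp the bases around the centre are given.
The region nearest to Vmn1r4, chr6:56923933-56924014, 82 bases between the first exons of Nt5c3 and Vmn1r4: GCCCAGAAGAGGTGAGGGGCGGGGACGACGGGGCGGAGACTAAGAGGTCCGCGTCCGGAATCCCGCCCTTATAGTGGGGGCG
The region nearest to Vmn1r86, chr7:13103623-13103712, 90 bases of an intron next to an untranslated exon: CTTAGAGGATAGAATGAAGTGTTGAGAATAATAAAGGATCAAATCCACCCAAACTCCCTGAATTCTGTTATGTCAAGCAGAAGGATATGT
The region nearest to Vmn1r1, chr1:182163037-182163334, intronic: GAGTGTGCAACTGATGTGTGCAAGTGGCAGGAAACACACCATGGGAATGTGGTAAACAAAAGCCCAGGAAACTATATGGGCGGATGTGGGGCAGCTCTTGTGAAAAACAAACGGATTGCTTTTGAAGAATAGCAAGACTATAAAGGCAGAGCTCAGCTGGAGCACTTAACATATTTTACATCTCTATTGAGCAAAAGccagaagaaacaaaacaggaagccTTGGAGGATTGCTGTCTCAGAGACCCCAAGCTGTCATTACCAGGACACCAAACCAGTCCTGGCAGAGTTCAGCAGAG
The region nearest to Vmn1r210, chr13:22829359-22829658, intronic: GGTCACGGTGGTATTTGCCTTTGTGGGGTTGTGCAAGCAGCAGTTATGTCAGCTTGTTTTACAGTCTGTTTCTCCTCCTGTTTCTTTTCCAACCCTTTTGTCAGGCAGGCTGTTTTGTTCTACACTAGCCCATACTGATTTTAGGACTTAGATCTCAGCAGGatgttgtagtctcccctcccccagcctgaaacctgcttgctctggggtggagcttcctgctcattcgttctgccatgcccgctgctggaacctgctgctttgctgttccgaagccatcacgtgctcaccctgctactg
The region nearest to Vmn1r2, chr4:3164779-3165078, intergenic: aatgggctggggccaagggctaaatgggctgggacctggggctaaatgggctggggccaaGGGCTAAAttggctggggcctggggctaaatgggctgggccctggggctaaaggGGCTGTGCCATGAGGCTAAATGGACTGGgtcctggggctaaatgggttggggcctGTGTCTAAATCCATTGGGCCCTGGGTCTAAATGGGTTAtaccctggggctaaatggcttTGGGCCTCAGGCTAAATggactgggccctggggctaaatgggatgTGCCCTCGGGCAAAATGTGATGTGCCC
The next region of Vmn1r2, chr4:3174633-3174814, intergenic: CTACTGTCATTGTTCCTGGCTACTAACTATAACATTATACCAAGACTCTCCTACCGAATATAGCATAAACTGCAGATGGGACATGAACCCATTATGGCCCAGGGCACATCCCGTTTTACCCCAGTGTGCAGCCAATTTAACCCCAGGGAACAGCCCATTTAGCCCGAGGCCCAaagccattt
The region nearest to Vmn1r29, chr6:58298491-58298790, intergenic: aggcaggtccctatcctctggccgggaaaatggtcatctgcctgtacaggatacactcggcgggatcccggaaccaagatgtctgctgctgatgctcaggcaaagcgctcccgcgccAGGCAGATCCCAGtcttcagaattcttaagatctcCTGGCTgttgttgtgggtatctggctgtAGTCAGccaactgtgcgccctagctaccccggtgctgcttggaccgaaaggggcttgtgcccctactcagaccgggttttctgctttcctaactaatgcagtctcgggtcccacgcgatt

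The first 2 of these stretches contain no repeat base, although the whole regions they come from are 2.87% (Vmn1r4) and 27.7% (Vmn1r86) repeat. The Vmn1r29 stretch is 91.7% repeat, and its whole region 94.8%. In the Vmn1r2 sequence chr4:3164779-3165078 similar short words follow each other, partly inside and partly outside annotated repeats (60.7% repeat), and these words return in the comparison of regions with each other.

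The first comparison asked how many Vmn1r genes had an accessible region nearby. A region was centred within 20 kb of an annotated TSS at 42 of the 208 genes (20.2%, Wilson interval 15.3 to 26.2%), whereas 86.7% of all autosomal protein-coding genes had one. Of the Vmn1r genes, 166 had no region, 26 had 1, 12 had 2, 2 had 4, 1 had 5 and 1 had 6, while the median over all genes was 3. The closest region lay a median of 57104 bp from the TSS of a Vmn1r gene (quartiles 25708 and 135623 bp), compared with 152 bp over all genes. Vmn1r142 was farthest, at 998503 bp. Wilson and Poisson intervals given here cover counting error only, and genes of a cluster share windows and regions, so they are not independent.

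Close to the TSS the family was nearly devoid of regions. Within 2 kb, 4 of the 208 genes had a region (1.92%, 0.7503 to 4.84%), compared with 71.9% of all genes. These were Vmn1r4 (63 bp from the region's centre to the TSS), Vmn1r86 (691 bp), Vmn1r1 (1301 bp) and Vmn1r210 (1395 bp). The Vmn1r4 region, chr6:56923429-56924475, is 1047 bp wide with 58.5% GC, and its centre is even closer, at 20 bp, to a TSS of Nt5c3, which encodes a cytosolic nucleotidase and is transcribed in the opposite direction. The other 3 are 148 bp wide for Vmn1r86, 298 bp for Vmn1r1 and 417 bp for Vmn1r210, compared with a median of 354 bp over all autosomal regions.

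The annotation of the TSSs is uneven in this family. For 53 of the 208 genes (25.5%) every annotated transcript starts at the first coding base, so that no upstream exon is annotated, compared with 3.64% of all autosomal protein-coding genes. Among these 53 genes, 1 had a region within 20 kb (1.89%, 0.334 to 9.94%). Each of the other 155 genes has a transcript that starts elsewhere or has no annotated coding sequence. Of these 155 genes, 41 had a region (26.5%, 20.1 to 33.9%). Over all genes, the corresponding shares were 52.5% and 88.0%. Of the 53 genes without an upstream TSS, 50 lie on chromosome 7 and 47 are also among the genes with the least unique sequence described further on, and the parts of these properties cannot be told apart.

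The second comparison set the density of regions around the Vmn1r genes against the autosomal mean. The 20-kb windows covered 7.04 Mb without sequence gaps and contained 53 regions, or 7.52 regions per Mb (exact 95% Poisson interval 5.64 to 9.84). The autosomal mean was 33.1 regions per Mb, so that the density around Vmn1r genes was 0.227 of the mean (0.170 to 0.297). At the mean density the windows would contain 233 regions, and at the mean density of the chromosomes on which they lie they would contain 256.2.

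**Figure D1:**
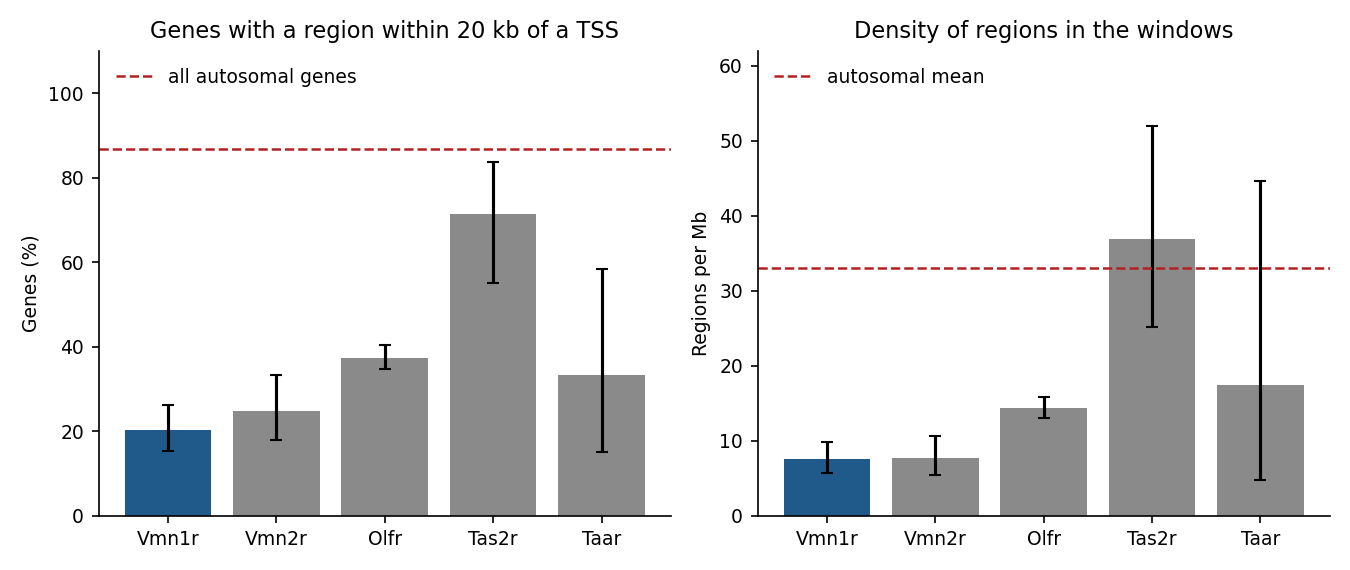
Share of genes with a region centred within 20 kb of a TSS (left, %) and regions per Mb of the windows (right) for Vmn1r and 4 other chemoreceptor families. Bars start at 0, error bars are 95% Wilson (left) and exact Poisson (right) intervals, and dashed lines mark all autosomal protein-coding genes (86.7%) and the autosomal mean (33.1 regions per Mb); Vmn1r is lowest in both panels, with intervals overlapping those of Vmn2r and Taar.

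Among the other chemoreceptors, the Vmn2r genes, which encode the receptors of the basal vomeronasal neurons, were closest to Vmn1r. A region lay within 20 kb of 30 of 121 Vmn2r genes (24.8%, 17.95 to 33.2%), with 7.73 regions per Mb (5.47 to 10.6), and both intervals overlap those of Vmn1r. The odorant receptor (Olfr) genes had higher values, 422 of 1128 genes (37.4%, 34.6 to 40.3%) and 14.4 regions per Mb (12.97 to 15.9), and neither interval overlaps that of Vmn1r. The bitter taste receptor (Tas2r) genes reached 25 of 35 genes (71.4%, 54.95 to 83.7%), an interval below the 86.7% of all genes. Their density was 36.8 regions per Mb (25.2 to 52.0), an interval that includes the autosomal mean. Of the 15 trace amine-associated receptor (Taar) genes, 5 had a region (33.3%, 15.2 to 58.3%), and 4 regions gave 17.5 per Mb (4.76 to 44.7). Both Taar intervals overlap those of all the other families.

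The deficit in density was deepest at the TSS and was not seen in the bins beyond 50 kb. Counted per gene it remained, since 65.4% of Vmn1r genes and 96.9% of all genes had a region within 100 kb. Within 2 kb of a Vmn1r TSS the density was 3.11 regions per Mb (0.846 to 7.95), compared with 131 per Mb within 2 kb of any autosomal protein-coding TSS. It was 8.61 per Mb at 2 to 5 kb, 7.73 at 5 to 10 kb and 9.09 at 10 to 20 kb from the closest Vmn1r TSS. Farther away it rose to 19.5 at 20 to 50 kb, 32.25 at 50 to 100 kb and 53.6 at 100 to 200 kb (46.1 to 62.1), the last of which is above the autosomal mean. Over all genes the density was 33.7 per Mb at 2 to 5 kb, 39.6 at 5 to 10 kb and 38.0 at 10 to 20 kb, and lower farther away, with 18.1 per Mb at 100 to 200 kb. The bins over all genes are by the distance to the closest TSS of any protein-coding gene. Far bins around Vmn1r genes can contain TSSs of other genes, so the far bins of both series cover unlike sequence.

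**Figure D2:**
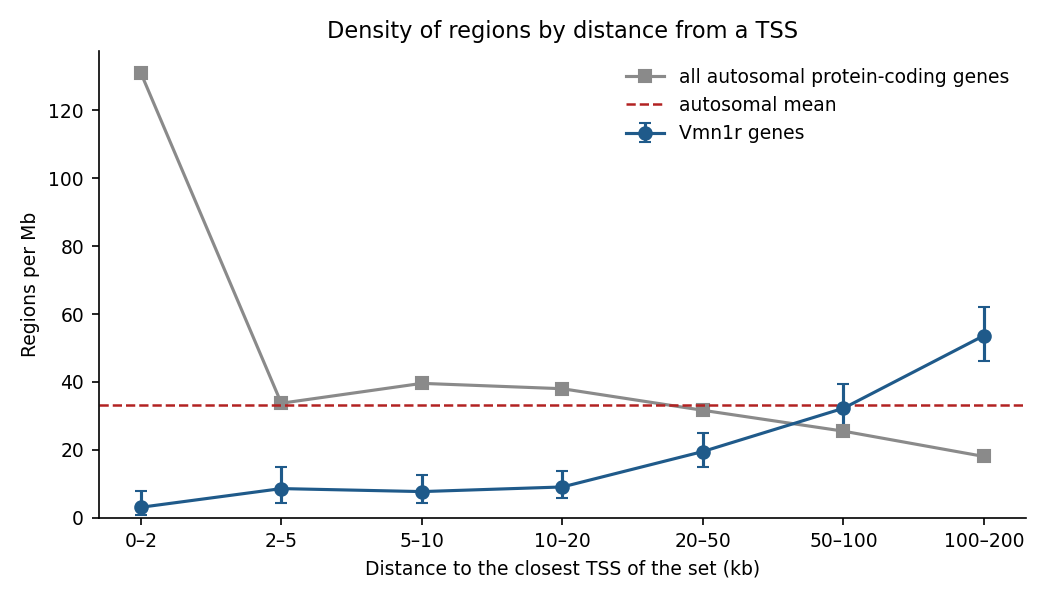
Regions per Mb (vertical axis) in successive distance bins from the closest TSS (horizontal axis, kb) for Vmn1r genes (circles, bars are exact 95% Poisson intervals) and for all autosomal protein-coding genes (squares), with the autosomal mean as a dashed line. Around Vmn1r genes the density rose from 3.11 per Mb within 2 kb to 53.6 per Mb at 100 to 200 kb.

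With neighbouring TSSs at most 500 kb apart joined, the 208 genes formed 15 groups, of which 10 contained at least 3 genes and together 201 genes. The windows of these 10 clusters contained 40 regions in 6.77 Mb, or 5.91 regions per Mb (4.22 to 8.05). In the flanks, the 500 kb beyond the windows at either end of each cluster, 609 regions in 9.55 Mb gave 63.8 regions per Mb (58.8 to 69.1). Flanks were denser than windows in all 10 clusters, although in 3 of them the flanks were below the autosomal mean of 33.1, with 15 regions per Mb at Vmn1r66 to Vmn1r71 and 17 at Vmn1r72 to Vmn1r84 on chromosome 7, and 31.1 at Vmn1r224 to Vmn1r237 on chromosome 17. The flanks also differed in sequence, with 38.4% repeats and 42.9% GC, whereas the windows of all Vmn1r genes had 55.8% repeats and 39.6% GC and the autosomes 33.5% and 41.9%.

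**Figure D3:**
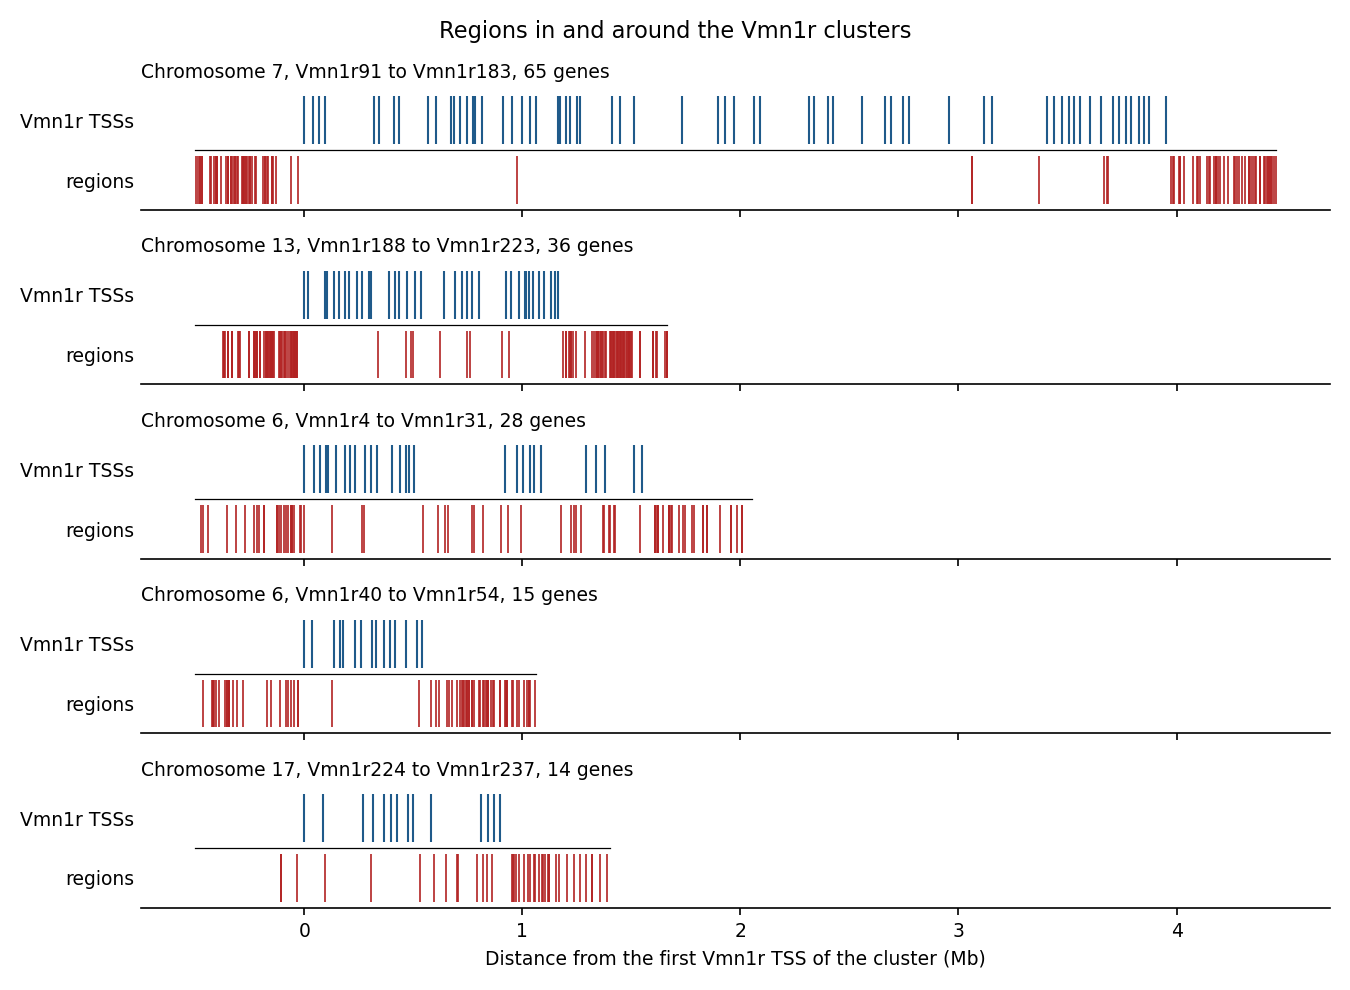
Positions of Vmn1r TSSs (upper ticks) and of region centres (lower ticks) in the 5 clusters with the most genes and 500 kb on either side, as the distance from the first Vmn1r TSS of the cluster in Mb. Regions are dense on both sides of the chromosome 7 cluster of 65 genes and scarce within it.

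The emptiest of the large clusters was that of chromosome 7 from Vmn1r91 to Vmn1r183, with 65 genes over 3.955 Mb. Its windows contained 2 regions in 2.14 Mb (0.934 per Mb, 0.113 to 3.38), and its flanks had 99 regions per Mb. On chromosome 13, the cluster from Vmn1r188 to Vmn1r223 (36 genes) had 8 regions at 8.13 per Mb (3.51 to 16.0) and 130 per Mb in its flanks. The chromosome 6 cluster from Vmn1r4 to Vmn1r31 (28 genes) had 13 regions at 14.1 per Mb (7.48 to 24.03), and that from Vmn1r40 to Vmn1r54 (15 genes) had 3 at 5.80 per Mb (1.20 to 16.95). On chromosome 17, Vmn1r224 to Vmn1r237 (14 genes) had 6 regions at 11.5 per Mb (4.24 to 25.1). The highest density among clusters of at least 3 genes was 17.2 per Mb (3.55 to 50.4) for Vmn1r85 to Vmn1r89 on chromosome 7, from 3 regions. The interval of the 65-gene cluster lies below those of the chromosome 13 and 17 clusters, of Vmn1r4 to Vmn1r31 and of Vmn1r85 to Vmn1r89, and overlaps those of the other 5 clusters of at least 3 genes. Among these, Vmn1r72 to Vmn1r84 and Vmn1r66 to Vmn1r71 on chromosome 7 had 1.91 (0.0483 to 10.6) and 3.62 regions per Mb (0.0916 to 20.2), from 1 region each, at 86.5% and 96.5% unique words, a measure described further on. The interval of Vmn1r85 to Vmn1r89 includes the autosomal mean, and those of the other 9 clusters lie below it. These densities and intervals are per Mb of the windows. Per Mb of unique sequence, the 65-gene cluster had 3.29 regions. The other 9 clusters had between 2.20 (Vmn1r72 to Vmn1r84) and 21.2 (Vmn1r85 to Vmn1r89). No intervals were computed on this scale, so the separation of the 65-gene cluster holds per Mb of the windows only.

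By chromosome, 9 of 103 genes on chromosome 7 had a region (8.74%, 4.67 to 15.8%), 8 of 36 on chromosome 13 (22.2%, 11.7 to 38.1%), 15 of 51 on chromosome 6 (29.4%, 18.7 to 43.0%) and 6 of 14 on chromosome 17 (42.9%, 21.4 to 67.4%). The density on chromosome 7 was 2.17 regions per Mb of the windows, or 0.0640 of that chromosome's own mean, while it was 0.233 of its own mean on chromosome 6, 0.268 on chromosome 13 and 0.308 on chromosome 17. Without chromosome 7, the share of Vmn1r genes with a region was 31.4% and the density 0.404 of the autosomal mean. The 4 genes on chromosomes 1, 4 and 18 departed from this pattern. Each had a region, and their windows had 108 regions per Mb on chromosome 1 (35.0 to 252), 103 on chromosome 4 (37.9 to 225) and 50 on chromosome 18 (6.06 to 181). These intervals all exceed or include the autosomal mean.

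Some of the longest stretches without any region contained many Vmn1r genes. The median distance between neighbouring autosomal regions was 11159 bp. Of the 79259 such intervals, ranked by their length without sequence gaps, the second longest (chr7:21076881-23162397, 2036 kb) contained 28 Vmn1r genes from Vmn1r121 to Vmn1r163, and that of rank 20 (chr7:20071033-21076185, 1005 kb) contained 19 from Vmn1r91 to Vmn1r120. Of the 20 longest, 2 contained Vmn1r genes, and so did 3 of the 178 of at least 500 kb. These 3 contained 54 of the 208 genes (25.96%), whereas stretches of at least 500 kb contained 2.27% of all autosomal protein-coding genes. On chromosomes 6 and 13, stretches of 396 kb (Vmn1r42 to Vmn1r53) and 372 kb (Vmn1r188 to Vmn1r200) each contained 12 genes.

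Reads that map to several places were discarded upstream, so the uniqueness of the sequence was measured beside the density. Of the 75-base words in the Vmn1r windows, 67.0% occurred once in the genome, compared with 92.5% on a regular grid over the autosomes, 73.3% for Vmn2r and 88.8% for Olfr. In the 65-gene cluster of chromosome 7 the share was 28.4%, and in its 2 longest stretches without a region it was 7.57% and 8.31%. The stretches of chromosomes 6 and 13 with 12 genes each had 84.2% and 84.7% unique words. At the windows of Vmn1r62, Vmn1r137 and Vmn1r138, all on chromosome 7, no sampled word was unique, and none of these genes had a region. At the other end, Vmn1r66 had 98.8%, Vmn1r15 98.7% and Vmn1r213 98.7% unique words. Vmn1r66 and Vmn1r15 had 0 regions, and Vmn1r213 had 2.

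Genes with little unique sequence had the fewest regions, and genes with mostly unique sequence were still far below the rest of the genome. Of the 53 genes with under 50% unique words, 51 of them on chromosome 7, 1 had a region (1.89%, 0.334 to 9.94%). The share was 13 of 48 genes (27.1%, 16.6 to 41.0%) at 50 to 80% unique words, 12 of 38 (31.6%, 19.1 to 47.5%) at 80 to 90%, and 16 of 69 (23.2%, 14.8 to 34.4%) at 90% or more. These last 3 shares lie within each other's intervals, and the 69 genes had 10.3 regions per Mb (6.77 to 14.9), below the autosomal mean. Counted per Mb of unique sequence, the density was 0.314 of the autosomal mean. The bins were set after the values had been seen. Whether the low uniqueness of the chromosome 7 cluster contributes to its lack of regions was not tested.

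**Figure D4:**
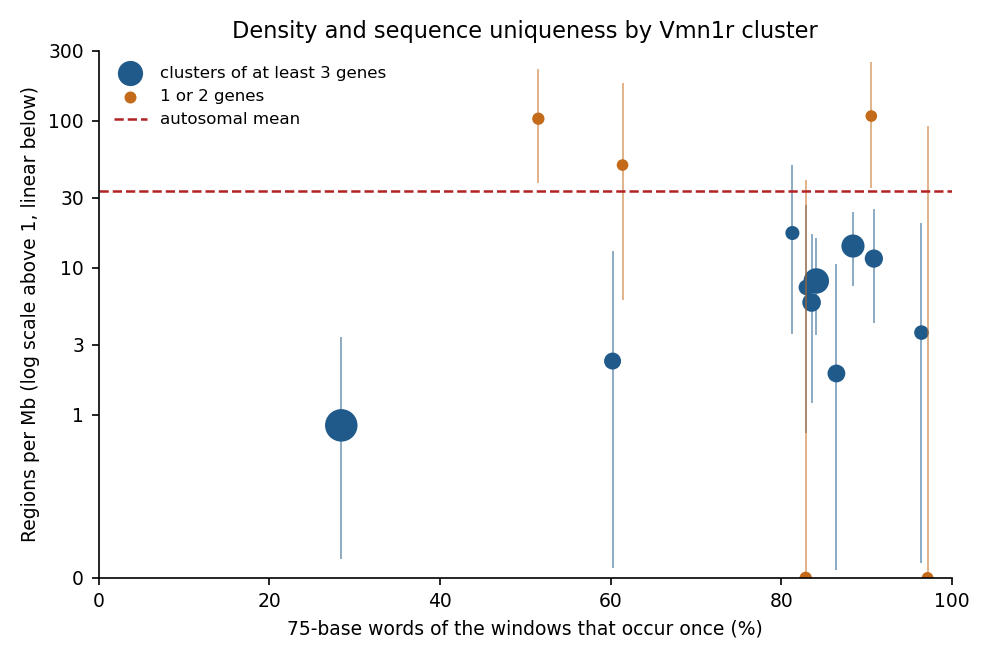
Regions per Mb (vertical axis, logarithmic above 1 and linear below) against the percentage of 75-base words of the windows that occur once in the genome, for the 15 groups of Vmn1r genes. Bars are exact 95% Poisson intervals, larger markers stand for more genes, and the dashed line is the autosomal mean; the values of all 10 clusters of at least 3 genes lie below it, from 28.4% to 96.5% unique words, and the interval of 1 of them, Vmn1r85 to Vmn1r89, includes it.

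The 53 regions in the windows differed from other regions more in repeat content than in width. Their median width was 406 bp (quartiles 221 and 775 bp, 95% interval of the median 278 to 568 bp), and the autosomal median was 354 bp, which lies within that interval. Widths above 1000 bp were found for 7 of the 53 (13.2%, 6.55 to 24.8%), compared with 4.74% of autosomal regions. Widths below 200 bp were found for 12 (22.6%), compared with 19.8%. The median repeat content was 66.0% of the bases (interval 32.7 to 80.4%), similar to the 55.8% of the windows themselves, whereas the median autosomal region contained 9.06% repeats in a genome with 33.5%. The value depends on the distance, and regions within 50 kb and 100 kb of a Vmn1r TSS had medians of 34.1% and 19.7%. Repeats made up 50% or more of the bases in 30 of the 53 regions (56.6%, 43.3 to 69.0%), compared with 13.5% of all autosomal regions, and 90% or more in 13 (24.5%, 14.9 to 37.6%), compared with 3.48%. All sampled words were unique in 29 of the 53 regions (54.7%) and in 90.2% of autosomal regions. GC content was close to that of other regions, with medians of 50.6% and 51.9%.

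**Figure D5:**
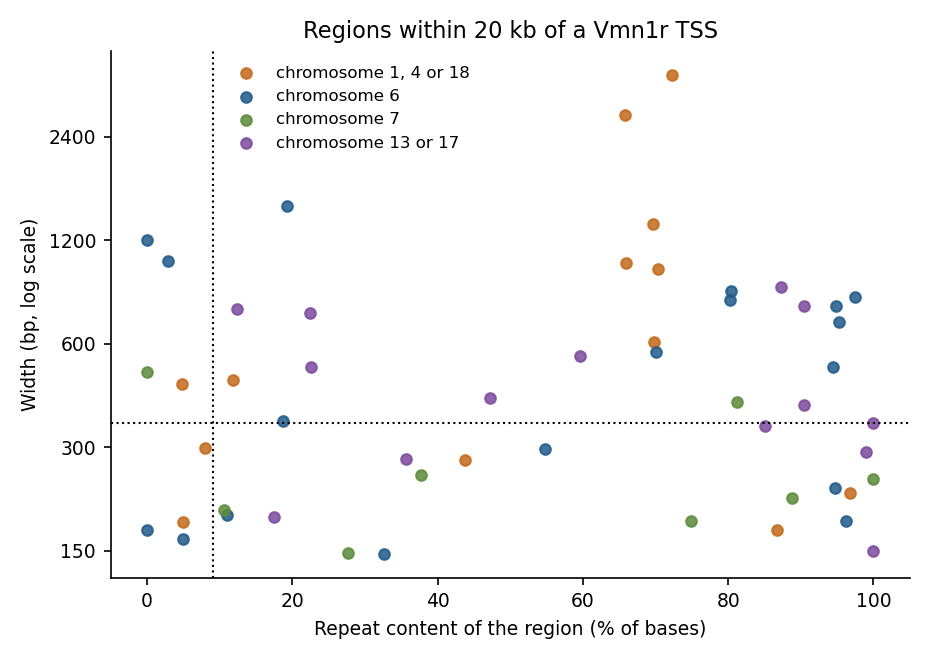
Width in bp (vertical axis, log scale) against repeat content in % of bases for each of the 53 regions within 20 kb of a Vmn1r TSS, coloured by chromosome. Dotted lines are the medians of all autosomal regions, 354 bp and 9.06%; most points lie to the right of the vertical line and on both sides of the horizontal line.

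Repeat content in the other chemoreceptor families lay between these values, with medians of 39.4% for the 38 Vmn2r regions (interval 11.2 to 65.0%), 42.0% for the 392 Olfr regions (34.4 to 49.9%) and 32.4% for the 32 Tas2r regions (16.3 to 65.6%). Each of these intervals overlaps that of Vmn1r. The median of the 4 Taar regions was 19.7%.

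By annotation, 41 of the 53 regions (77.4%, 64.5 to 86.6%) were intergenic, compared with 35.1% of all autosomal regions. Introns contained 6 (11.3%, 5.29 to 22.6%), compared with 35.3%, and exons contained 1 (1.89%), compared with 8.78%. Another 5 (9.43%, 4.10 to 20.2%) were in the promoter of an annotated gene, meaning that the centre lay between 1000 bp before and 100 bp after a TSS, compared with 20.8%. The exonic region, chr17:21231770-21231957, lies in the 3′ untranslated part of Vmn1r234. Promoters of other protein-coding genes accounted for 3 regions (5.66%, 1.94 to 15.4%), compared with 17.7% of all autosomal regions. These were at Nt5c3, at Zfp160, which encodes a zinc finger protein, and at Vopp1. The closest protein-coding TSS belonged to a Vmn1r gene for 45 of the 53 regions (84.9%), compared with 0.121% of all autosomal regions. The 53 regions were selected by their distance to a Vmn1r TSS, so a high share is built in.

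Of the 5 genes with the most regions, 3 lay outside the clusters. Vmn1r2 had 6, Vmn1r1 had 5, Vmn1r3 and Vmn1r29 had 4 each, and Vmn1r13 was 1 of 12 genes with 2, named here as the first in character order. Vmn1r2 and Vmn1r3 are neighbours near the start of the assembled chromosome 4 and share regions, including the widest of the whole list, chr4:3177761-3181395, at 3635 bp with 72.3% repeats and 56.7% GC. Next in width were a region of 2770 bp near Vmn1r238 on chromosome 18 with 65.9% repeats, a region of 1513 bp near Vmn1r53 (chr6:90232097-90233609) at the TSS of the pseudogene Gm20426, a region of 1340 bp near Vmn1r1 (chr1:182181454-182182793) and a region of 1203 bp near Vmn1r21 (chr6:57824296-57825498) at the Vopp1 promoter.

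Some of the regions had sequence in common. When 16-base words on either strand were compared, 26 pairs of the 53 regions shared at least 20% of the words of the shorter region, and these pairs joined 16 regions into 4 groups. These were 1.89% of the 1378 possible pairs, compared with 0.0141% of all pairs of autosomal regions. A group of 8 regions accounted for 19 of the 26 pairs, and 8 pairs joined regions less than 100 kb apart. Among the other 45 regions, 7 of 990 pairs remained (0.707%). With partners sought in the whole autosomal list, 31 of the 53 regions had one (58.5%, 45.1 to 70.7%), compared with 11.8% of all autosomal regions. Among regions with 50% or more repeats the shares were 26 of 30 (86.7%, 70.3 to 94.7%) around Vmn1r genes and 61.3% over the autosomes. The group of 8 consisted of the 2 near Vmn1r238, 4 of those near Vmn1r2, the widest one near Vmn1r3, and chr7:12017624-12017872 near Vmn1r77. The highest share in this group, 44.0%, was between chr4:3176278-3177266 and the 3635-bp region. Words also recurred within these regions. Distinct words made up less than 70% of the positions in 5 of the 53 regions (9.43%, 4.10 to 20.2%), compared with 0.390% of autosomal regions. They made up 59.7% of the positions of the 3635-bp region and 59.4% of those of the 2770-bp region. The most frequent 12-base word of the 3635-bp region, counted on both strands, was found there 49 times, 38 times in the 2770-bp region and 19 times in the region chr4:3164414-3165445 of Vmn1r2, part of which is printed above. All 8 regions of the group contained this exact word, and none of the other regions in the windows did. Altered copies were not counted. The printed region chr4:3174633-3174814 of Vmn1r2, outside the group, shares a short stretch with chr4:3164779-3165078 on the opposite strand. Over the autosomes, 12 of the 79278 regions had at least 3 copies of the exact word, and 7 of these 12 were in Vmn1r windows. The word was taken from these regions, and the limits of 20% and 70% were set, after the data had been seen. Another group linked regions near Vmn1r205, Vmn1r227, Vmn1r9 and Vmn1r29 on chromosomes 13, 17 and 6, and all 4 are over 87% repeat. The sequence of the Vmn1r29 region given above belongs to it. Shared words are a description of the sequence, and the class of repeat was not determined.

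Motifs of factors relevant to the sorted populations were counted on both strands. The octamer ATGCAAAT was found in 2 of the 53 regions (3.77%, 1.04 to 12.7%), compared with 2.65% of all autosomal regions. A SOX motif, CCATTGT or CCTTTGT, was found in 13 (24.5%, 14.9 to 37.6%), compared with 16.0%. The homeodomain core TAATTA was found in 3 (5.66%, 1.94 to 15.4%), compared with 6.40%, and the CTCF core in 1 (1.89%, 0.334 to 9.94%), near Vmn1r1, compared with 5.99%. All 4 autosomal shares lie within the intervals. The regions are not matched for width, and a match is not evidence of binding.

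Promoter sequences of RefSeq (build GRCm38, 300 bases around the start) were matched by symbol for 183 of the 208 genes. Their median GC content was 36% (quartiles 32.8 and 37.7%), compared with 57.3% (49 and 65%) for 15687 autosomal protein-coding promoters, and the median number of CpG dinucleotides was 1, compared with 15. TAATTA was present in 15 of the 183 (8.20%, 5.03 to 13.1%), compared with 4.49% of all promoters of the same length. This motif contains only A and T, and the promoters compared differ in GC content, whose part in the difference was not tested. ATGCAAAT was present in 4 (2.19%, 0.853 to 5.48%), compared with 1.65%, a SOX motif in 11 (6.01%, 3.39 to 10.4%), compared with 7.64%, and the CTCF core in 0 (up to 2.06%), compared with 0.574%. These 3 shares over all promoters lie within the intervals.

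Genes known for signalling and regulation in vomeronasal or main olfactory neurons had regions nearby, as did 86.7% of all autosomal protein-coding genes within 20 kb. All 32 genes of this list of signalling components, neuron markers, trafficking factors and transcription factors had a region within 20 kb, with a median of 5, and 28 had one within 1 kb. Among the 10 signalling genes, Trpc2 had 5 regions and Gnai2 had 7. Adcy3, which encodes an adenylate cyclase of main olfactory neurons, had the most regions of the list (14). The 14 transcription factors and cofactors, including Tfap2e, Meis2 and Bcl11b, each had a region within 1 kb. The 4 genes without one were the neuron markers Kirrel2 (closest region at 2463 bp) and Stoml3 (9848 bp) and the odorant receptor transporters Rtp1 (12078 bp) and Rtp2 (7654 bp). The Wilson intervals, 89.3 to 100% within 20 kb and 71.9 to 95.03% within 1 kb, lie narrowly above the 86.7% and 69.5% of all genes, and the list was chosen by hand. The list is not matched to other genes for the number of TSSs, which reached 16 at Meis2. Expression was not measured.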

How the data were processed

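The authors aligned 75-base paired-end reads to mm10 with STAR (2.5.3a), discarded reads mapping to several places and then duplicates (Picard), called peaks per library with MACS2 (2.1.1.20160309), merged them with BEDOPS and discarded peaks overlapping ChIP-seq input peaks. A Tn5 shift of read ends is not given in the sources used here. The deposited list holds chromosome, start and end. The ChIP-seq samples were not analysed here.

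Regions were read with Python (3.11.15), numpy (2.4.6) and pandas (2.3.3), and assigned by their centre to windows of 20 kb around the TSSs of all annotated transcripts (GENCODE M21). Regions were counted once per union of windows. Repeats were lower-case bases of GRCm38. Unique words of 75 bases were counted every 5 bp in the windows and every 500 bp on the autosomes, on both strands, with numba (0.67.0). Intervals (95%) were Wilson, exact Poisson or, for medians, binomial order statistics (scipy 1.17.1), and plots used matplotlib (3.10.9). Counting functions were tested on simulated data. No test was made, since the list has no replicates.

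The members and lists were chosen with earlier results of these data known. Named genes were those with a region within 2 kb of a TSS, the 5 with the most regions, those closest to the 5 widest regions, and the 3 with the highest and the 3 with the lowest share of unique words; named clusters were the 5 with the most genes and the 3 densest of at least 3 genes; listed genes were named where they had 0 or the most regions, and others, including the genes at the ends of clusters and stretches and those sharing words, after their values were seen. Printed sequences were those of the 7 regions closest to a Vmn1r TSS. Alternatives were other distances, TSSs, region filters, chromosomes, biotypes and measures.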

Additional observations from a re-analysis of the deposited data

How the results depend on the processing

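The 4 main values were recomputed under other settings, which gave 56 alternative values in all, since not every setting applied to every value. Of these, 43 were the same quantity within the 95% interval of the reported value. Among them were the values without chromosome 6, without regions under 200 bp and without regions in promoters of other protein-coding genes. All 16 alternatives for the density gave a ratio to the autosomal mean below 1, between 0.175 and 0.486. The share of Vmn1r genes with a region was 5.29% within 5 kb and 12.0% within 10 kb of a TSS. It was 44.2% within 50 kb and 65.4% within 100 kb. Over all autosomal protein-coding genes, the shares at these 4 distances were 77.07%, 81.45%, 93.27% and 96.86%. A larger window contains the smaller one, so the share cannot fall with distance. Without chromosome 7 the Vmn1r share within 20 kb was 31.4%. The density ratio was 0.344 within 50 kb, 0.486 within 100 kb, 0.404 without chromosome 7, 0.304 with genes of every biotype, 0.314 per Mb of unique words and 0.312 for bases covered, and the cause of these shifts was not tested. The median repeat content was 34.1% within 50 kb, near the lower bound of its interval, and 19.7% within 100 kb, and counted as the share of regions with at least 50% repeats, a different quantity, it was 56.6%. Leaving out the 4 genes of chromosomes 1, 4 and 18, chosen after seeing the data, gave a ratio of 0.175 and a share of 18.6%.

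No paired analysis was possible because the list has no values per library. The list gives no read depth at any position, so a missing region is not evidence of closed chromatin. CGR8 cells and the reference genome come from different mouse strains, and strain differences in these gene clusters were not tested. The populations were not compared, the line is 1 clone, and expression of the genes was not measured.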

Other observations

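Vmn1r pseudogenes were counted in the same way as the protein-coding genes. Of 118 autosomal pseudogenes, 34 had a region within 20 kb (28.8%, 21.4 to 37.6%), an interval that overlaps that of the protein-coding genes. Their windows contained 50 regions in 3.78 Mb, or 13.2 per Mb (9.81 to 17.4). This is above the 7.52 per Mb of the protein-coding genes, whose interval of 5.64 to 9.84 it barely overlaps. Of the 50 regions, 16 also lay in windows of protein-coding Vmn1r genes.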
